A study of Mus musculus with 12 samples.

Results

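The 10 genes described here comprise 6 enzymes of bile acid synthesis (Cyp7a1, Cyp8b1, Cyp27a1, Cyp7b1, Hsd3b7 and Akr1d1), the bile acid receptor FXR (Nr1h4), the repressor SHP that FXR induces (Nr0b2), the growth factor receptor FGFR4 (Fgfr4) and beta-klotho (Klb). They were taken by symbol from a liver expression table of 41128 genes. The RNA came from the livers of 12 C57BL/6 mice, 1 library per mouse, killed at 6 weeks of age. All were born germ-free (GF) and stayed in sterile isolators up to weaning on day 21. Afterwards 6 of them (3 males and 3 females) remained GF, and 6 littermates (3 males and 3 females) were conventionalized (CV), that is, exposed to microbes through used bedding for 3 weeks. The sexes are those of the labels, which give no time of day, feeding state, batch or RNA quality. Values are normalised read counts, meaning reads per gene divided by 1 size factor per library, and all 10 genes passed the filter of a mean value of at least 10.

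Hepatocytes turn cholesterol into bile acids by a classical route, opened by Cyp7a1, and an alternative route, opened by Cyp27a1 and continued by Cyp7b1. Bile acids returning from the gut activate FXR, which induces SHP in the liver and the hormone Fgf15 in the ileum. Fgf15 reaches the liver and acts there through FGFR4 and its coreceptor beta-klotho, and both arms repress Cyp7a1 and Cyp8b1. Gut bacteria deconjugate and modify bile acids, and so change the ligands that reach FXR.

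The libraries differed in ways that touch every comparison with condition. They held from 5993619 to 15290835 reads, and 7 abundant loci, among them both mitochondrial ribosomal RNA genes, took 55.2% ± 12.1 (SD, n = 6) of the reads in GF and 11.6% ± 7.81 (SD, n = 6) in CV livers. Outside these loci, GF libraries held from 1834565 to 5303292 reads and CV libraries from 6943462 to 14411498, so low values are less precise in GF livers. One library, labelled CV male 3, held 0 reads of Y-linked genes and an Xist value of 2382. The other 5 libraries labelled male held 796 to 1314 Y-linked reads and Xist values of at most 21.3. Libraries labelled female held at most 1 Y-linked read and Xist values from 1045 to 11928, so the labelled sex of CV male 3 is in doubt. Results on males that move without that library are therefore also given without it. In whole liver, fewer hepatocytes and less RNA per hepatocyte cannot be told apart.

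Genomic sequence upstream of the start site is shown for Cyp8b1, Akr1d1 and Nr0b2, because the first 2 were higher in CV livers of both sexes and the third encodes the FXR-induced repressor. The sequences are from RefSeq on build GRCm38.p6, which held a promoter for 8 of the 10 genes. Capitals mark letters found by a search for 5 motifs on both strands of the 250 bases before the start. They were the HNF4 site CAAAGTCCA, the TATA box TATAAA, the LRH-1 site CAAGGTCA, the nuclear receptor core motif AGGTCA, and the FXR inverted repeat, made of the core motif, any 1 base and the reverse complement of the core motif. The core motif reads as TGACCT where it lies on the opposite strand, and its letters form part of the LRH-1 site and of the inverted repeat.
Cyp8b1, minus strand, chr9:121916306-121916555: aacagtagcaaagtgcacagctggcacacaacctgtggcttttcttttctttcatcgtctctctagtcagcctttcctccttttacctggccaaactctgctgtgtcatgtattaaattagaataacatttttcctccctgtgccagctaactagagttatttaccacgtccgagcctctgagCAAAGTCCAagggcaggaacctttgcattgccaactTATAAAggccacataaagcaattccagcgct
Akr1d1, plus strand, chr6:37529923-37530172: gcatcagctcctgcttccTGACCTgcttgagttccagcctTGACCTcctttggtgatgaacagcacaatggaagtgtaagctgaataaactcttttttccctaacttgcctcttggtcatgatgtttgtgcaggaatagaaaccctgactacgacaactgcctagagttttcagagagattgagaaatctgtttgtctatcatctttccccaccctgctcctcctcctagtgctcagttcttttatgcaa
Nr0b2, plus strand, chr4:133553126-133553375: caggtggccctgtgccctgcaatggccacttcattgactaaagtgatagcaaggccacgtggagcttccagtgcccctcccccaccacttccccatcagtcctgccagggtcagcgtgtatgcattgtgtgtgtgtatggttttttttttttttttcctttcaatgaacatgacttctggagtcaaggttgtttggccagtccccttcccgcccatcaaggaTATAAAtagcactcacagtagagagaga
The Cyp8b1 sequence held the HNF4 letters from 67 to 59 bases and a TATA box from 31 to 26 bases before the start. The HNF4 letters occurred in 0.381% of 27025 promoters of the same length, and the TATA letters in 13%. Akr1d1 held the core motif from 232 to 227 and from 210 to 205 bases before the start, a motif found in 13.8% of promoters. Nr0b2 held a TATA box from 28 to 23 bases before the start. None of the 8 sequences held the LRH-1 letters, present in 1.31% of promoters, or the inverted repeat, present in 0.0074%. A match describes letters only, and binding was not measured.

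In CV females, 4 of the 10 genes were higher than in GF females and 0 were lower (limma, Benjamini-Hochberg adjusted p under 0.05). These were Cyp8b1, Cyp7b1, Akr1d1 and Klb. Of all 11782 genes tested, 29.8% were called higher and 26% lower in this comparison, so calls were no more frequent among the 10 genes than among all genes. In CV males, 3 genes were higher (Cyp7a1, Cyp8b1 and Akr1d1) and 0 lower, against 14.1% of all genes called higher and 15.4% lower. Over both sexes, 3 genes were higher (Cyp8b1, Akr1d1 and Klb) and Nr1h4 was lower, against 32.3% and 28.7% of all genes. The median log2 change of the 10 genes was 0.58 in females and 0.16 in males, beside 0.08 and 0.06 over all genes. All 10 had a mean value of at least 50. Over the 8255 genes that did, the median was 0.31 in females and 0.15 in males. Of these, 3181 were called higher in females and 1599 in males. Without the library labelled CV male 3, the 3 male calls remained, against 12.1% of all genes called higher. Over both sexes 5 genes were then higher and Nr1h4 was lower, against 32% and 28.3%, with Cyp7b1 and Nr0b2 added. Cyp8b1 and Akr1d1 were the genes called higher in both sexes.

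**Figure D1:**
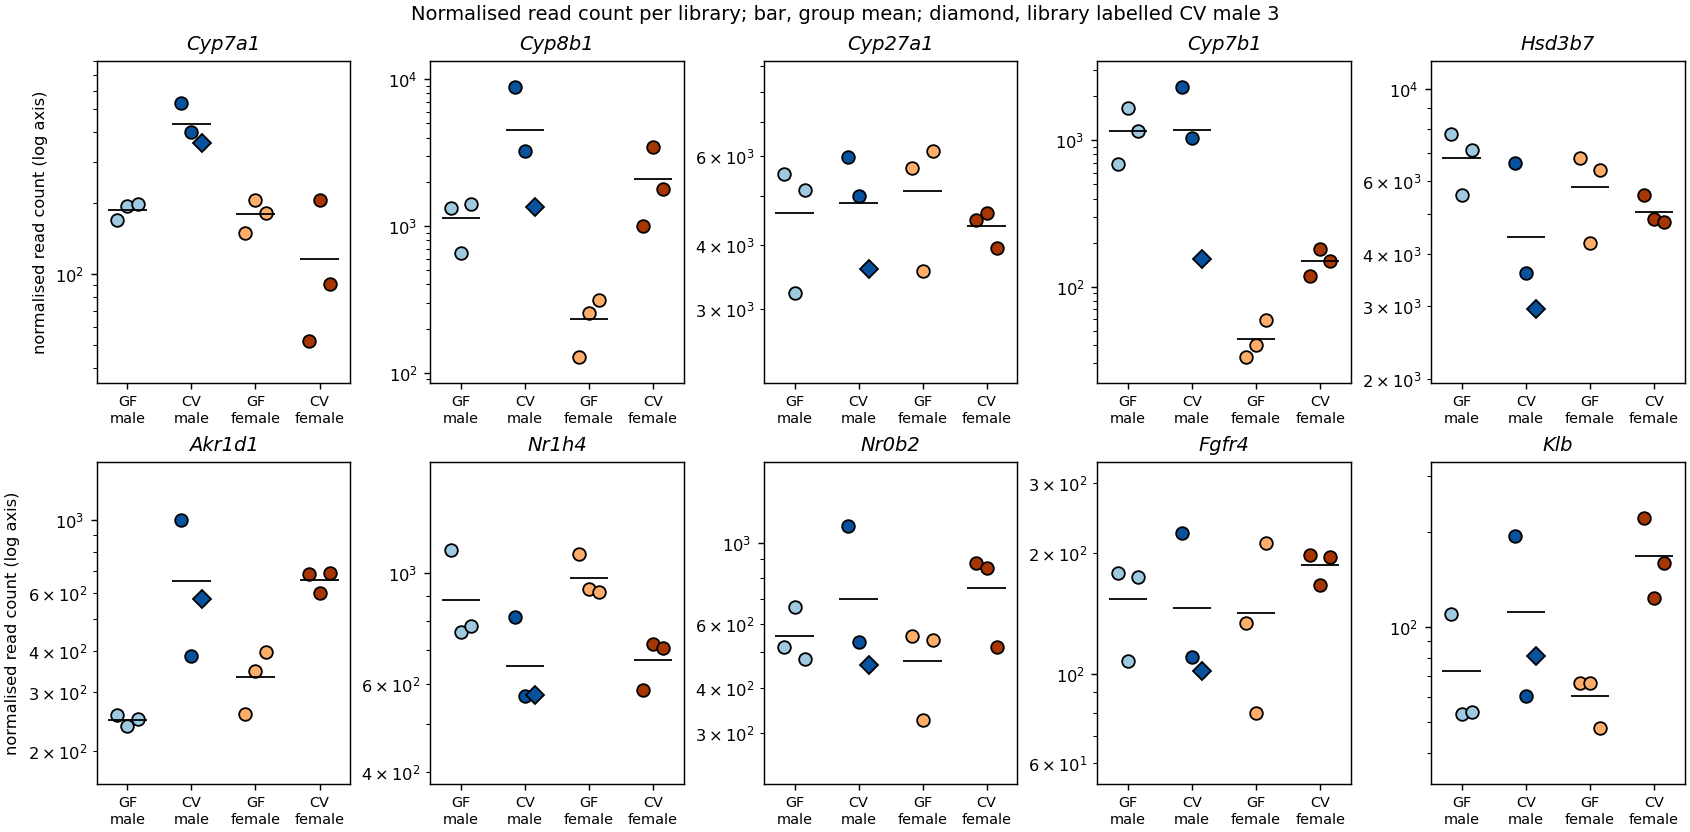
Normalised read count of each of the 10 genes (log axis) in the 12 libraries. Each point is 1 mouse, horizontal bars are group means (n = 3), and the diamond is the library labelled CV male 3. Cyp8b1 was at 128 to 312 in GF females and at 1004 to 3471 in CV females, whereas Cyp27a1 and Hsd3b7 overlapped between conditions in both sexes.

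Cyp7a1 (chr4:6265612-6275633, minus strand of GRCm38) encodes cholesterol 7-alpha-hydroxylase, the rate-limiting enzyme of the classical route. Its normalised read count was 170, 194 and 198 in the 3 GF males and 534, 401 and 362 in the 3 CV males. In GF females it was 149, 207 and 182, and in CV females 52.2, 207 and 90.9. All 3 CV males lay above all 3 GF males, as in 22% of all genes, while the female groups overlapped through CV female 2. In males the log2 change (CV minus GF) of Cyp7a1 was 1.18 ± 0.36 (SE; limma adjusted p = 0.0232). In females it was -0.83 ± 0.36 (adjusted p = 0.0596, 95% interval -1.60 to -0.07), which did not pass the threshold. With the library labelled CV male 3 left out, the male change was 1.30 and still passed, but it did not pass without GF male 1, GF male 3 or CV male 1, with changes of 1.11, 1.22 and 1.02. The female change passed without CV female 2 (-1.36), with voom (-0.88, adjusted p = 0.0495), with the replicate block (adjusted p = 0.0494) and scaled to reads outside the abundant loci (-1.45), and in none of the other alternatives.

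The change in Cyp7a1 differed between the sexes by 2.02 ± 0.51 on the log2 scale (male minus female), with an unadjusted p of 0.00109 and an adjusted p of 0.417 in limma. No gene passed the adjusted threshold for this difference, 0% of those tested, although 1382 had an unadjusted p under 0.05. The quasi-likelihood test of edgeR also called 0 genes, and DESeq2 called 26, none of the 10 among them. Between the sexes, Cyp7a1 levels in GF livers differed by 0.07 ± 0.36 on the log2 scale (adjusted p = 0.936). In CV livers the level was higher in males by 2.09 ± 0.36 (limma adjusted p = 0.0450). All 3 libraries labelled CV male, the one without Y-linked reads included, lay above all 3 CV females, as in 6.57% of all genes. Cyp7a1 was 1 of 7 genes called there, and 1 of 6 called higher, against a background of 0.0509%. With the replicate number as a block within CV livers, 25 genes were called and the limma adjusted p of Cyp7a1 was 0.0146. That block was added after the data were seen, because the numbered pairs deviated together in these same libraries (correlations of 0.12 to 0.19). The titles number the mice but name no pairs, so the adjusted p with this block adds no support to the call. In the fit without the block this call held without CV female 2 (2.61) or the library labelled CV male 3 (2.21), and it was lost when any other 1 of the 12 libraries was left out. Among CV libraries it then lay between 1.63 without CV female 1 and 2.13 without CV male 2.

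Cyp8b1 (chr9:121914356-121916305, minus strand) encodes sterol 12-alpha-hydroxylase, which directs synthesis to cholic acid. GF females had values of 128, 255 and 312, and CV females had 1004, 3471 and 1777. GF males had 1325, 655 and 1404, and CV males had 8857, 3217 and 1346, the last being the library labelled CV male 3. The female groups did not overlap, with CV higher as in 34% of all genes, and the male groups overlapped only through that library. Without it, CV males lay above GF males, as in 26.3% of all genes. The log2 change was 3.07 ± 0.57 in females (limma adjusted p = 0.000311), larger than that of 99.6% of the genes tested. In males it was 1.66 ± 0.57 (adjusted p = 0.0376) and 2.32 without the library labelled CV male 3. Leaving out any 1 of the other 5 male libraries ended the male call, with changes from 0.96 without CV male 1 to 1.86 without GF male 3. The difference between the male and female changes was -1.42 ± 0.80 (adjusted p = 0.467). Within GF livers all 3 males lay above all 3 females, as in 10.2% of all genes. The difference was 2.29 ± 0.57 on the log2 scale (adjusted p = 0.0530). It passed with the library labelled CV male 3 left out (adjusted p = 0.0131), where 1.66% of all genes were called higher in males.

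Cyp27a1 (chr1:74713574-74737892, plus strand) encodes sterol 27-hydroxylase, the mitochondrial enzyme that opens the alternative route. Its values lay between 3226 and 6132 in all 12 libraries, and the groups overlapped in both sexes. The log2 change was -0.20 in females (95% interval -0.86 to 0.47) and 0.08 in males (-0.59 to 0.74). With a per-library trend on length and GC content removed, the female change was -0.90 and was called lower.

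Cyp7b1 (chr3:18071950-18243338, minus strand) encodes oxysterol 7-alpha-hydroxylase, which follows Cyp27a1 and is known for higher expression in male mouse liver. GF females had values of 33.2, 39.9 and 59.4, and CV females had 119, 181 and 151. GF males had 693, 1652 and 1151, and CV males had 2314, 1043 and 154, the last again being the library labelled CV male 3. That library lay within the range of the CV females, and every other male library was above every female library. The log2 change in females was 1.76 ± 0.65 (limma adjusted p = 0.0285), resting on 15 to 31 reads per library in GF females. This call was lost without GF female 1 (1.58), GF female 2 (1.71), CV female 2 (1.62) or CV female 3 (1.75). It was also lost with DESeq2 (1.77, adjusted p = 0.0511), with voom (1.74), with no filter on low values and with the length and GC trend removed (1.51). In males the change was -0.61 ± 0.65 (adjusted p = 0.499), and it turned to 0.50 without the library labelled CV male 3. Averaged over both sexes, the change of 0.58 ± 0.46 (adjusted p = 0.283) became 1.13 and passed without that library.

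Cyp7b1 was also the gene of the 10 with the largest sex difference in GF livers. The level in GF males exceeded that in GF females by 4.64 ± 0.65 on the log2 scale (limma adjusted p = 0.00173), and it was the 1 gene of the 10 called in this comparison, against 1.23% of all genes called higher in males. In CV livers the level in males exceeded that in females by 2.27 ± 0.65 (adjusted p = 0.499). With the library labelled CV male 3 left out it did so by 3.38 (adjusted p = 5.25e-05), and 2 of the 10 genes, Cyp7a1 and Cyp7b1, were then among 77 genes called, and 0.373% of all genes were called higher in males. The change with condition differed between the sexes by -2.37 ± 0.91 (unadjusted p = 0.0190, adjusted p = 0.417), and by -1.26 without that library. Without CV male 1 the difference was -3.21 ± 0.78 and passed (adjusted p = 0.0478).

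Hsd3b7 (chr7:127800604-127803802, plus strand), which encodes the microsomal dehydrogenase acting on the sterol ring after the first hydroxylation, ranged from 2944 to 7769. GF males had 7769, 5548 and 7107 and CV males had 6640, 3600 and 2944, with a log2 change of -0.71 ± 0.33 (limma adjusted p = 0.115). The male groups overlapped through CV male 1, and without it the change was -1.05 and passed. It also passed when scaled to reads outside the abundant loci (-1.01) or with a per-library trend on length and GC content removed (-1.02). In females the change was -0.18 (95% interval -0.87 to 0.52), and with the trend removed it was -0.73 and passed.

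Akr1d1 (chr6:37530173-37568815, plus strand) encodes the reductase that gives the sterol nucleus its bent bile acid shape. GF males had values of 257, 238 and 249, and CV males had 995, 388 and 577. GF females had 258, 348 and 399, and CV females had 683, 599 and 688. Every CV library lay above every GF library of its labelled sex, as in 34% of all genes in females and 22% in males. Between the sexes, all 3 GF males lay below all 3 GF females, as in 8.46% of all genes, with a log2 difference of -0.41 (adjusted p = 0.476). The log2 change was 1.29 ± 0.29 in males (limma adjusted p = 0.00532) and 0.99 ± 0.29 in females (adjusted p = 0.00873). The male call held when any 1 library was left out, with changes from 0.93 to 1.61, and the female call was lost without GF female 1 (0.81). The male and female changes differed by 0.30 (95% interval -0.57 to 1.17).

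**Figure D2:**
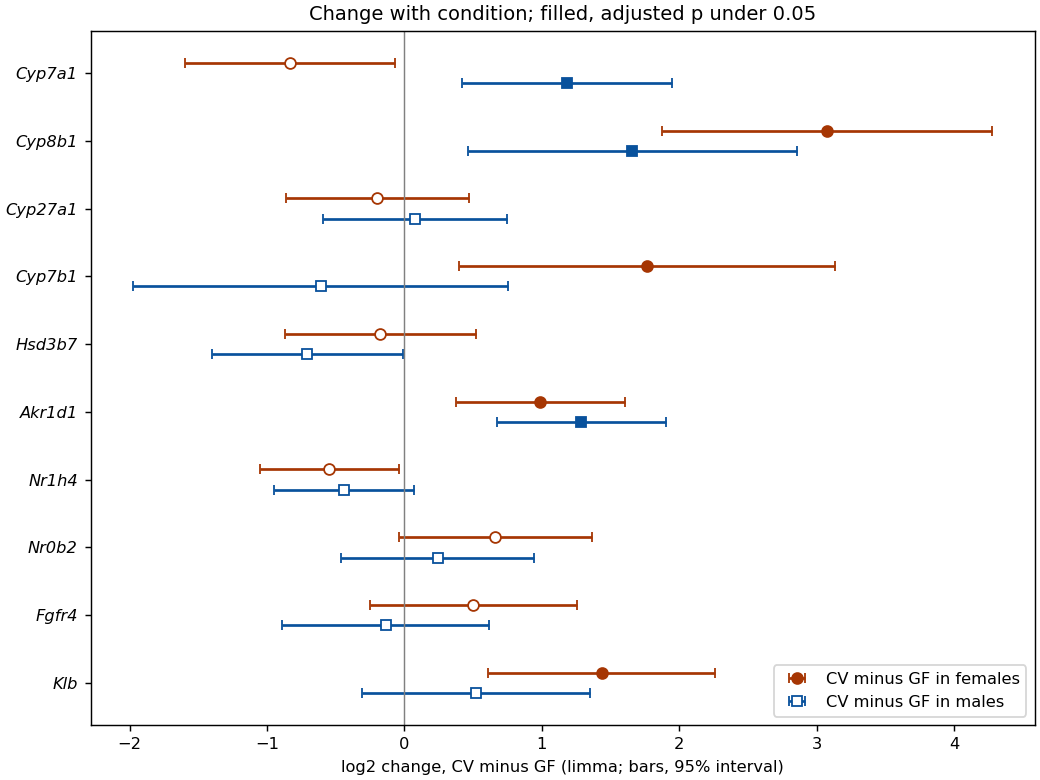
Log2 change (CV minus GF) of each gene in females (circles) and males (squares) with 95% intervals from limma. Filled symbols passed an adjusted p of 0.05. The Cyp8b1 and Akr1d1 intervals lie above 0 in both sexes, and the Cyp7a1 intervals lie on opposite sides of 0.

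Nr1h4 (chr10:89454234-89533585, minus strand) encodes FXR, the nuclear receptor that senses bile acids. GF females had values of 1091, 928 and 918, all above the 584, 722 and 707 of CV females, a separation with CV lower that 31% of all genes showed. GF males had 1110, 761 and 782, and CV males had 815, 568 and 570, with an overlap through CV male 1. The log2 change was -0.55 ± 0.24 in females (limma adjusted p = 0.0630) and -0.44 ± 0.24 in males (adjusted p = 0.174). Neither passed alone in the limma fit of all 12 libraries, although the female change did with DESeq2 (adjusted p = 0.0401), and the average over both sexes of -0.49 ± 0.17 did (adjusted p = 0.0189). It no longer passed without GF male 1 (-0.41) or CV female 1 (-0.45), nor when scaled with TMM factors or to all reads.

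Nr0b2 (chr4:133553376-133556536, plus strand) encodes SHP, a receptor without a DNA-binding domain that FXR induces. GF females had values of 554, 327 and 542, and CV females had 881, 854 and 519. GF males had 518, 665 and 479, and CV males had 1109, 533 and 461. Groups overlapped in both sexes, through CV female 3 among the females. The log2 change was 0.66 ± 0.33 in females (limma adjusted p = 0.0992) and 0.24 in males (95% interval -0.46 to 0.94). The average over both sexes was 0.45 ± 0.23 (adjusted p = 0.105), and it was 0.57 ± 0.24 and passed without the library labelled CV male 3.

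Fgfr4 (chr13:55152640-55168759, plus strand) encodes the hepatic receptor for Fgf15. Its values ranged from 79.8 to 225, and the groups overlapped in both sexes. The log2 change was 0.50 in females (95% interval -0.25 to 1.25) and -0.14 in males (-0.89 to 0.62). Klb (chr5:65348314-65384007, plus strand) encodes beta-klotho, without which FGFR4 does not bind Fgf15 efficiently. GF females had Klb values of 66.4, 66.5 and 47.9, and all 3 CV females were higher at 221, 123 and 159, a separation that 34% of all genes showed. GF males had 110, 53.2 and 53.9, and CV males had 194, 60.4 and 80.9, so the male groups overlapped. The log2 change of Klb was 1.43 ± 0.39 in females (limma adjusted p = 0.00546) and 0.52 ± 0.39 in males (adjusted p = 0.329). The female call held when any 1 library was left out, with changes from 1.22 to 1.64, and rested on 25 to 44 reads per library in GF females. Fgf15 and the ileal bile acid binding protein gene Fabp6 had 0 reads in all 12 libraries, so the hormone itself was not measured at its source.

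Levels between genes were compared per kb of exon length, as mean normalised read counts per kb (n = 3 per group). In CV females the order of levels was Cyp27a1 at 2006 ± 164 (SD), Hsd3b7 at 1825 ± 152, Cyp8b1 at 1069 ± 647, Nr0b2 at 664 ± 178, Nr1h4 at 291 ± 33.0, Akr1d1 at 227 ± 17.3, Cyp7b1 at 69.4 ± 14.4, Fgfr4 at 52.9 ± 4.92, Klb at 36.8 ± 10.9 and Cyp7a1 at 27.9 ± 19.3. Among neighbours in that order, the differences between Cyp27a1 and Hsd3b7, Hsd3b7 and Cyp8b1, Cyp8b1 and Nr0b2, Cyp7b1 and Fgfr4, and Klb and Cyp7a1 were smaller than the sum of their SDs. Cyp27a1 and Hsd3b7 held the first 2 places in 3 of the 4 groups, and in CV males the mean of Cyp8b1 was 2294 ± 2005 per kb beside 2231 ± 547 for Cyp27a1. That place rested on CV male 1, since Cyp8b1 was at 4542, 1650 and 690 per kb in the 3 CV males and Cyp27a1 at 2740, 2301 and 1652. In GF females Cyp8b1 stood below Nr1h4 and Nr0b2, at 119 ± 48.3 per kb, and Cyp7b1 below Cyp7a1, at 20.4 ± 6.29 against 43.0 ± 6.97. In GF males Cyp7b1 was at 538 ± 221 per kb, next to Cyp8b1 at 579 ± 211. Klb was last in 3 groups, at 13.3 to 24.5 per kb. Cyp7b1, Hsd3b7 and Akr1d1 share positions with predicted genes, and reads in such overlaps could have been split or left out in counting.

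Ratios of gene pairs within a library do not depend on how that library was scaled, but they can depend on its trend on length and GC content. For 5 ratios, GF and CV labels were exchanged within each sex in an exact permutation test, two-sided, whose 400 relabellings allow a p of 0.005 at the smallest. The log2 ratio of Cyp8b1 to Cyp7a1 was higher in CV by 2.19 (exact permutation p = 0.02, adjusted over the 5 ratios 0.05). It lay between -0.22 and 0.78 in GF females and between 4.06 and 4.27 in CV females. In males it lay between 1.75 and 2.95 in GF and between 1.89 and 4.05 in CV, so those groups overlapped. Their means differed by 0.48, and by 1.02 once the library labelled CV male 3 was left out. The log2 ratio of Nr0b2 to Nr1h4 was higher in CV by 0.95 (exact permutation p = 0.01, adjusted 0.05), with differences of 1.21 in females and 0.68 in males. That of Klb to Fgfr4 was higher by 0.80 (exact permutation p = 0.035, adjusted 0.0583). None of the adjusted values lay under 0.05 with all 12 libraries. Once the library labelled CV male 3 was left out, the differences in Cyp8b1 to Cyp7a1 and in Nr0b2 to Nr1h4 were 2.46 and 1.03. Each then had an adjusted p of 0.025 (exact permutation test), and that of Klb to Fgfr4 was 0.117. For the same ratios the adjusted p was 0.0417 without GF female 2, and at least 0.1 without CV male 1. The log2 ratios of Cyp7a1 to Cyp27a1 and of Cyp7a1 to Cyp7b1 differed by 0.24 (exact permutation p = 0.6) and by -0.40 (exact permutation p = 0.65). For both, the difference had opposite signs in the sexes, at 1.11 in males and -0.64 in females for Cyp27a1 and at 1.79 and -2.60 for Cyp7b1. With the library labelled CV male 3 left out, the male differences were 1.02 and 0.80. These sex-wise differences were not tested.

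**Figure D3:**
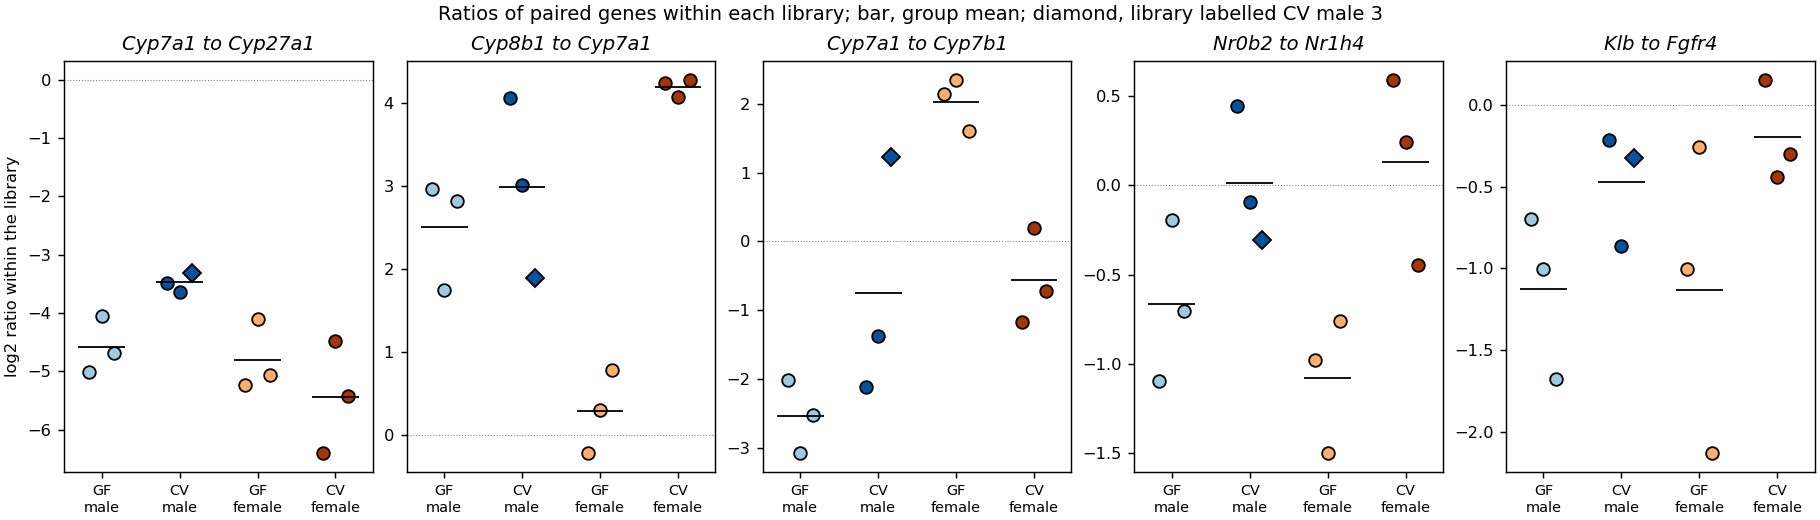
Log2 ratio of 5 gene pairs within each library, by group. Points are mice, bars are group means (n = 3), and the diamond is the library labelled CV male 3. The ratio of Cyp8b1 to Cyp7a1 was between 4.06 and 4.27 in CV females and at most 0.78 in GF females, and the ratio of Cyp7a1 to Cyp7b1 was at least 1.60 in GF females and at most -2.02 in GF males.

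The genes whose pattern over the 12 libraries was most like that of a member were found by the root mean square difference of centred log2 values among 11058 genes. For Cyp7a1 they were Bmyc (0.57) and G0s2 (0.59), against an SD of 0.90 of Cyp7a1 itself. For Cyp8b1 they were Slc2a5 (0.61), a fructose transporter gene, and Hsd17b10 (0.78), against 1.73. For Cyp7b1 they were Mup13 (0.49), a major urinary protein gene, and Elovl3 (0.50), a fatty acid elongase gene, against 2.14. For Nr0b2 they were Abcb8 (0.18) and Ubap1 (0.20), against 0.48.

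The other enzymes of the pathway, a list of further sterol and bile acid hydroxylases, of proteins that shorten the side chain in peroxisomes and of those that attach taurine or glycine, were higher in CV livers in most cases. Of 14 listed, 12 were tested, and 11 were higher and 0 lower in CV females with a median log2 change of 1.69, beside 0.08 over all genes. The CV males had 8 higher and 0 lower, and a median change of 0.89 beside 0.06. Over genes with a mean value of at least 50, the median change was 0.31 in females and 0.15 in males. Over all genes, 29.8% were called higher in females and 14.1% in males. With the library labelled CV male 3 left out, 7 were higher in males, without Acot8. Amacr, the racemase of side-chain oxidation, changed by 2.03 ± 0.28 in females and 0.89 ± 0.28 in males (limma adjusted p = 0.0259 in males). Slc27a5, which activates bile acids with coenzyme A, changed by 1.87 ± 0.34 and 1.21 ± 0.34 (adjusted p = 0.0145 in males). Cyp39a1, an oxysterol hydroxylase, changed by 1.30 ± 0.39 in females and 2.49 ± 0.39 in males (adjusted p = 0.000861 in males). Baat, the conjugating transferase, had a change of 0.40 ± 0.27 in females and 0.17 ± 0.27 in males and passed in neither.

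Among regulators of the pathway, 19 of 21 were tested. Most are transcription factors and their cofactors, and the list also holds cell surface receptors such as S1pr2. In females 4 were higher (Hnf4a, Nr1h3, Rxra and S1pr2) and 7 lower, against 29.8% and 26% of all genes. In males 0 were higher and 6 lower, against 14.1% and 15.4%, and 5 were lower with the library labelled CV male 3 left out, without Nr1i2. Nr5a2 (LRH-1), an activator of Cyp7a1 and Cyp8b1 that SHP inhibits, had a log2 change of -1.08 ± 0.30 in females and -0.95 ± 0.30 in males (limma adjusted p = 0.00617 and 0.0272). Ppargc1a, a coactivator induced by fasting, had changes of -2.77 ± 0.28 and -1.94 ± 0.28 (adjusted p = 0.000606 in males). The corepressor genes Gps2 and Ncor1 were also lower in both sexes, Gps2 at -1.36 ± 0.26 in females and -0.98 ± 0.26 in males. Hnf4a, whose motif letters stand in the Cyp8b1 sequence shown above, changed by 0.68 ± 0.24 in females (adjusted p = 0.0262), and in males its value was 0.20 ± 0.24 (adjusted p = 0.556). The part of Hnf4a in the Cyp8b1 values was not tested.

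Of 11 listed targets of FXR, 8 were tested. In CV females 6 were higher and 1 lower, against 29.8% and 26% of all genes. In CV males 5 were higher and 0 lower, against 14.1% and 15.4%. The list was not split by the direction in which FXR acts on each gene, so these counts give no direction of FXR activity. The 5 male calls remained with the library labelled CV male 3 left out, against 12.1% of all genes called higher. Slc10a1, the sodium-dependent bile acid uptake carrier, had log2 changes of 2.42 ± 0.31 in females and 1.29 ± 0.31 in males (limma adjusted p = 0.00730 in males). Pltp, a phospholipid transfer protein gene, had changes of 3.27 ± 0.47 and 2.56 ± 0.47 (adjusted p = 0.00180 in males). Abcb11, the canalicular bile salt export pump, had values of -0.63 ± 0.30 and -0.46 ± 0.30 (adjusted p = 0.0801 and 0.257), and its average over both sexes of -0.55 ± 0.21 passed (adjusted p = 0.0331). Abcc2, a canalicular exporter of conjugates, was lower in females, at -1.34 ± 0.25. Of 20 listed genes of FGF receptor signalling, 16 were tested. Fgfr1, another FGF receptor gene, and Frs2, an adaptor gene of these receptors, were lower in CV females, at -1.60 ± 0.39 and -0.77 ± 0.25 (limma adjusted p = 0.00272 and 0.0152). Of 18 clock genes, 17 were tested, with 3 higher and 5 lower in females and 4 higher and 4 lower in males, or 6 higher and 3 lower in males with the library labelled CV male 3 left out. The female counts lie near or below the shares of all genes, 29.8% higher and 26% lower. The male counts lie above the male shares, 14.1% higher and 15.4% lower. The male count of higher clock genes without that library also lies above its share of 12.1%. Cyp7a1 follows the daily clock, and the part of clock genes in its values was not tested.

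**Figure D4:**
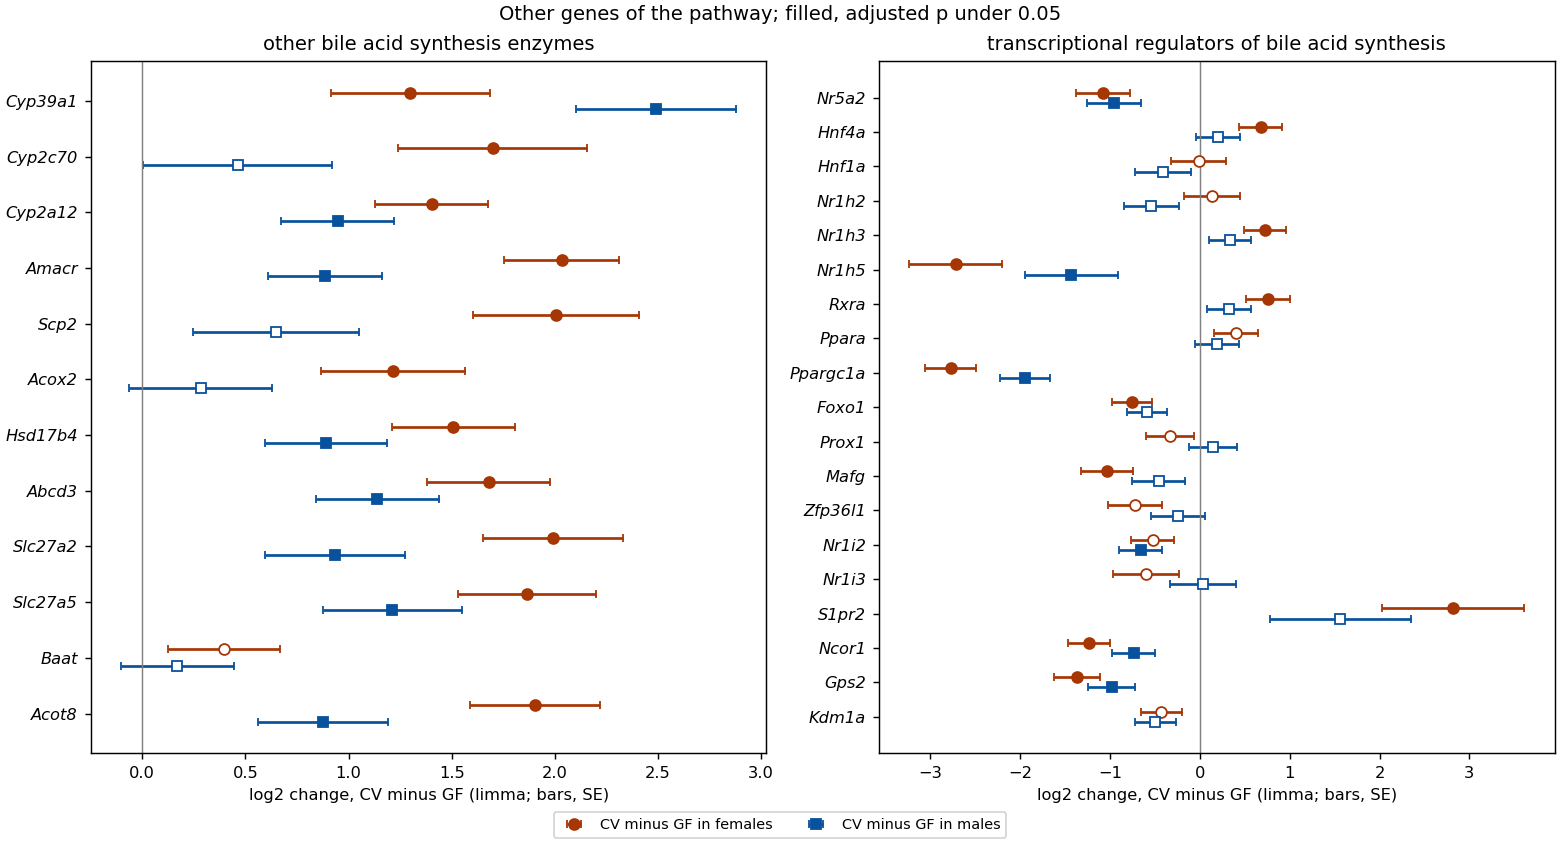
Log2 change (CV minus GF) with SE from limma for the 12 tested other enzymes of bile acid synthesis (left) and the 19 tested regulators, the surface receptor S1pr2 included (right), in females (circles) and males (squares). Filled symbols passed an adjusted p of 0.05. The enzymes lie to the right of 0 in both sexes, and Nr5a2, Nr1h5, Ppargc1a, Ncor1 and Gps2 lie to the left with filled symbols in both.

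Some markers of hepatocytes and of other cells moved with condition too. The summed value of 10 hepatocyte markers was 119631 to 315468 in GF females and 515887 to 670237 in CV females, and 226811 to 491642 against 416089 to 570873 in males. Of these 10, 6 were called higher in females and 1 in males. Over all genes, 29.8% were called higher and 26% lower in females, and 14.1% and 15.4% in males. The 10 markers had median log2 changes of 1.28 in females and 0.64 in males. The female changes of Cyp8b1, Cyp7b1 and Klb were above that median and that of Akr1d1 was below it. Summed blood markers (6 genes) ranged from 2781 to 32901 in GF and from 916 to 3160 in CV livers, and summed lymphocyte markers (5 genes in the table) from 83.6 to 169 and from 20.8 to 27.8. Of 6 Kupffer cell markers, 3 were higher in CV livers in each sex. The markers of bile duct and gallbladder summed to 459 to 1632 in the 4 groups, most of it Spp1 at 421 to 1472. Each of the others was at 42.1 at most, and Cftr and Tff2 had 0 reads in some libraries. The markers of exocrine pancreas summed to 17.5 at most. Of 6 stellate cell markers, 0 were higher and 1 lower in females and 2 were higher in males, and 1 of 6 sinusoidal endothelial markers was lower in each sex. The male hepatocyte count and the endothelial counts lie near or below the shares of all genes. Of 6 adipose markers, 1 was tested and 0 were called in either sex. With the library labelled CV male 3 left out, the male counts were 0 higher for hepatocytes, 1 lower for blood, 3 higher for Kupffer cells, 2 lower for lymphocytes, 1 higher for stellate cells and 1 higher for adipose tissue. Of all 11800 genes then tested, 1428 were called higher and 1556 lower in males. The part of these cells in the changes of the 10 genes was not tested.

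Part of the calls depended on the choice of scaling. Scaling to all reads moved the median log2 change over all genes to 0.88 in females and 0.38 in males. Scaled to reads outside the abundant loci, it moved to -0.55 and -0.25. The split of all female calls was 3512 higher and 3060 lower as deposited, 5861 and 1083 scaled to all reads, and 1853 and 4762 scaled to reads outside the loci. The male split was 1660 and 1814, 2831 and 771, and 874 and 2281. In females, the change of Cyp8b1 stayed called in all 3 scalings, at 3.07, 3.88 and 2.45. That of Cyp7a1 was -0.03 scaled to all reads, and it was -1.45 and called lower scaled to reads outside the loci. The female changes of Cyp7b1, Akr1d1 and Klb were 1.15, 0.37 and 0.82 scaled to reads outside the loci, and none of them passed there. In males, Akr1d1 stayed called in all 3, at 1.29, 1.60 and 0.98, while Cyp7a1 and Cyp8b1 were 0.88 and 1.36 outside the loci and did not pass. Hsd3b7 was called lower outside the loci in males, at -1.01, and over both sexes. Nr1h4 was called lower in both sexes outside the loci, at -1.17 in females and -0.74 in males, and was 0.26 and -0.13 scaled to all reads. The other synthesis enzymes remained 9 higher and 0 lower in females and 4 and 0 in males outside the loci, and 12 and 0 and 8 and 0 scaled to all reads. The regulators moved from 4 higher and 7 lower to 6 and 2 scaled to all reads in females, and to 1 and 12 outside the loci. In males they moved from 0 and 6 to 0 and 1 and to 0 and 7.

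**Figure D5:**
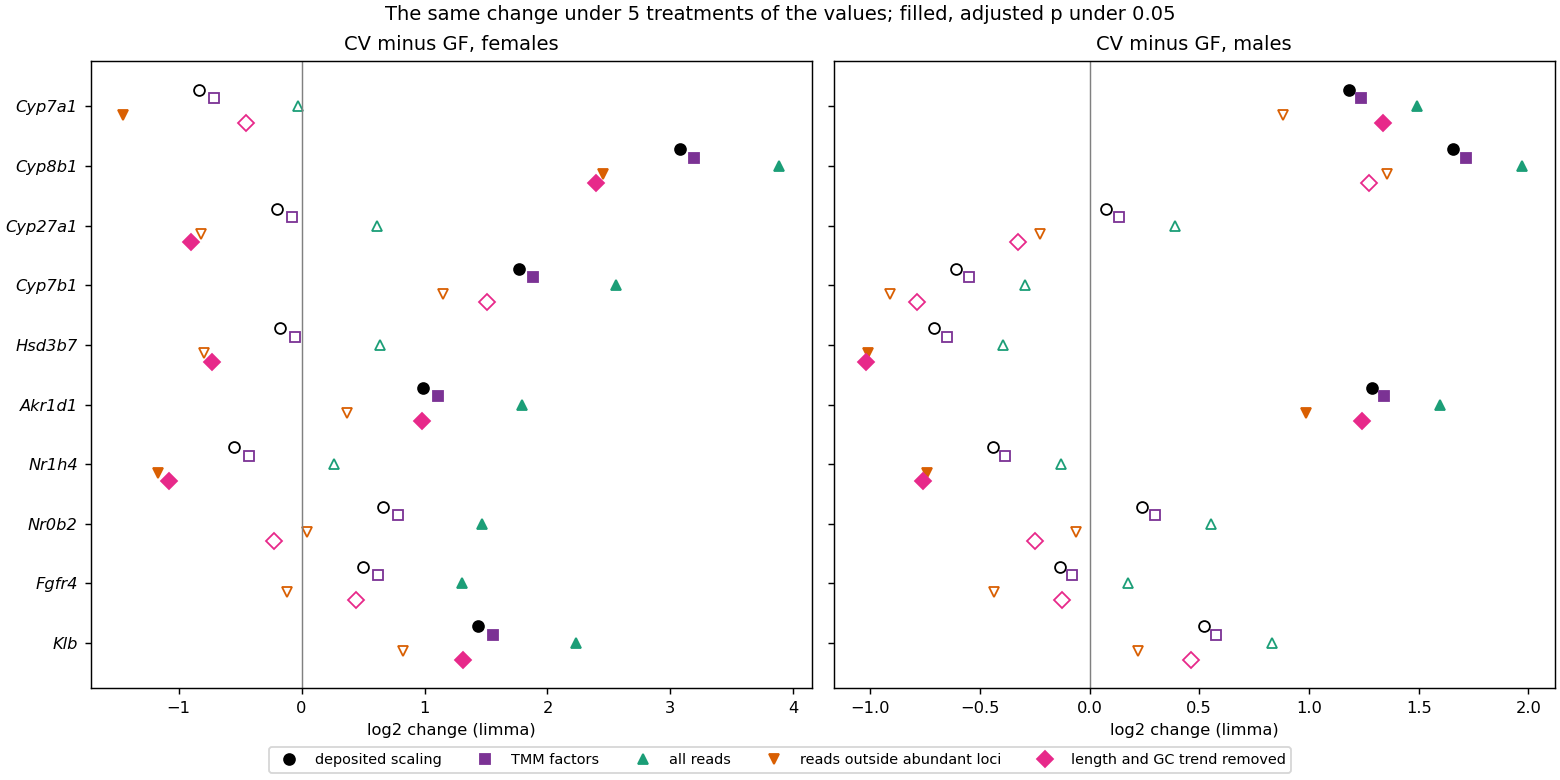
Log2 change (CV minus GF) of each gene in females (left) and males (right) under 4 scalings and after removal of a per-library trend on length and GC content. Filled symbols passed an adjusted p of 0.05 in limma. Cyp8b1 in females and Akr1d1 in males stayed filled throughout, and the signs of Cyp27a1, Hsd3b7, Nr1h4, Nr0b2 and Fgfr4 in females differed between the treatments.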

How the data were processed

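RNA sequencing of 12 mouse livers was analysed. The paper supplied with the series describes another experiment, and only its style was followed. Stranded mRNA libraries were made per the labels, and the submitters' processing notes name HTSeq 0.6.1p1, DESeq2 and GRCm38. The aligner is not given in the sources used here. The deposited values are a normalised signal: the authors divided gene counts by 1 size factor per library. Dividing by what 1 read was worth gave whole reads for 100% of values (tolerance 0.01 reads), so reads were recovered. Over the 66 library pairs, the chi-square per degree of freedom was at least 13.6, so no pair of libraries agreed within sampling noise.

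limma 3.58.1 (R 4.3.3) was fitted to log2(value + 1) over 11782 genes with a mean value of at least 10, with 1 mean per group, all 12 libraries, a variance trend and Benjamini-Hochberg adjustment at 0.05. Changes on this scale understate those of low genes. Alternatives on recovered reads used edgeR 4.0.16 and DESeq2 1.42.0. Other settings changed the scaling, pseudocount, filter, threshold, depth or covariates, or left out each library. The replicate block within CV livers was added after the data were seen. Same-numbered libraries correlated in their deviations from -0.23 to -0.09 (GF and CV males), from -0.17 to 0.02 (GF and CV females), from 0.06 to 0.40 (GF males and females) and from 0.12 to 0.19 (CV males and females). The titles name no pairs. The block within CV livers was chosen from these same correlations, and whether the numbers pair the mice is not known. All 10 genes are described, any gene of the 4 pathway lists could be named (one result of the FGF receptor signalling list is not reported here), and the most similar genes were named for 4 of the 10. The members and lists were chosen with earlier results of these data known. Coordinates and exon lengths are from GENCODE mouse release 21 on GRCm38. Mice are separate animals, and their number limits precision. Where a count is 0, up to 3 reads are allowed, for counting error only.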

Additional observations from a re-analysis of the deposited data

How the results depend on the processing

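Several results depend on the processing, and the cause was not tested. Leaving out 1 library at a time, genes called ranged from 5550 to 7002 (females), 1595 to 3877 (males), 6640 to 7429 (both sexes), 0 to 282 (difference between sexes), 49 to 722 (GF sex difference) and 3 to 77 (CV sex difference). Of the 10 genes, 2 to 6, 1 to 3, 3 to 6, 0 to 1, 1 to 2 and 0 to 2 were called. The 5 ratios ranged from -0.0035 to 0.48 (Cyp7a1 to Cyp27a1), 1.92 to 2.46 (Cyp8b1 to Cyp7a1), -0.90 to -0.064 (Cyp7a1 to Cyp7b1), 0.83 to 1.09 (Nr0b2 to Nr1h4) and 0.55 to 1.01 (Klb to Fgfr4). Signs turned without 1 library for Cyp27a1 in males (range -0.16 to 0.28, below 0 without GF male 2 or CV male 1) and over both sexes (-0.18 to 0.040, above 0 without GF male 1, GF female 3 or CV male 3), Cyp7b1 in males (-1.45 to 0.50, above 0 without CV male 3), Nr0b2 in males (-0.15 to 0.49, below 0 without CV male 1), Fgfr4 in males (-0.50 to 0.074, above 0 without CV male 2 or CV male 3), Cyp7a1 over both sexes (-0.087 to 0.40, below 0 without CV female 2) and Cyp7a1 between GF sexes (-0.054 to 0.18, below 0 without GF female 1).

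With the mitochondrial rRNA share as covariate, of which 93.53% of the variance lay between groups, 0 genes were called in females, 3 in males, 0 over both sexes, 1 for the difference between sexes, 4 for the GF and 15 for the CV sex difference, and 0 of the 10 genes in females, in males, over both sexes or between GF sexes (limma; unadjusted p under 0.05 in 1615, 2289 and 1985 genes for the first 3). There the female changes were -1.04 (Cyp8b1), -4.61 (Cyp7b1), -1.15 (Akr1d1), -2.28 (Nr0b2), -2.64 (Fgfr4) and -0.15 (Klb). Male changes were -0.10 (Cyp8b1), -0.54 (Cyp27a1), -1.02 (Nr0b2) and -0.16 (Klb). Those over both sexes were -0.40 (Cyp7a1), -0.57 (Cyp8b1), -3.98 (Cyp7b1), -0.39 (Akr1d1), -1.65 (Nr0b2), -2.06 (Fgfr4) and -0.15 (Klb). Cyp7b1 differed between the male and female changes by 1.27, and Cyp7a1 between GF sexes by -0.22. Scaled to all reads, 11 genes were called for the difference between sexes, 1395 and 17 for the GF and CV sex differences, and 7 of the 10 over both sexes and 2 between GF sexes. Changes turned to 0.61 (Cyp27a1), 0.63 (Hsd3b7) and 0.26 (Nr1h4) in females, 0.17 (Fgfr4) in males, and 0.50 (Cyp27a1), 0.12 (Hsd3b7) and 0.067 (Nr1h4) over both sexes. Scaled to reads outside the abundant loci, 4 genes and 0 of the 10 were called for the CV sex difference. Changes turned to -0.12 (Fgfr4, females), -0.23 (Cyp27a1, males), -0.060 (Nr0b2, males), and -0.28 (Cyp7a1), -0.0087 (Nr0b2) and -0.28 (Fgfr4) over both sexes, and to -0.24 for Cyp7a1 between GF sexes. TMM factors gave 2 of the 10 between GF sexes and 0.028 for Cyp27a1 over both sexes, and lost the Nr1h4 call over both sexes. With the length and GC trend removed, 3 of the 10 were called higher and 3 lower (Cyp27a1, Hsd3b7 and Nr1h4) in females, 2 higher and 2 lower (Hsd3b7 and Nr1h4) in males, and the female Cyp7b1 and male Cyp8b1 calls were lost. There 0 of the 10 were called for the CV sex difference, Nr0b2 was -0.22 (females), -0.25 (males) and -0.24 (both), Cyp27a1 was -0.32 in males, and the ratio of Cyp7a1 to Cyp7b1 was 0.083. The ratio of Cyp7a1 to Cyp27a1 was then 1.05 (exact permutation p = 0.045) and that of Cyp8b1 to Cyp7a1 was 1.39 (exact permutation p = 0.06). Adjusted over the 5 ratios, both had 0.075.

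DESeq2 called 26 genes for the difference between sexes, 455 and 50 for the GF and CV sex differences, with 2 of the 10 in each, and gave 0.0070 for Cyp7b1 in males. In females the count of 4 hides changes, since DESeq2 lost Cyp7b1 and gained Nr1h4 (lower), and voom lost Cyp7b1 and gained Cyp7a1 (lower). With only the groups of the contrast, Nr1h4 was added in females. edgeR called 30 genes and 2 of the 10, and voom 25 genes, for the CV sex difference, and voom 78 genes and 2 of the 10 for the GF one. At an adjusted p under 0.01, 1390 genes and 1 of the 10 were called in males, 55 genes for the GF and 3 genes and 0 of the 10 for the CV sex difference. For the CV sex difference, no filter gave 3 genes, a pseudocount of 0.5 gave 4 and only the groups of the contrast gave 0, each with 0 of the 10. No filter also lost Cyp7b1 in females and Cyp8b1 in males, and thinning lost Cyp7a1 in males and Klb over both sexes. Thinning gave 0 of the 10 there, 117 genes for the GF sex difference and 0.015 for Fgfr4 in males. The ratio of Klb to Fgfr4 was 0.54 after thinning (exact permutation p = 0.24). Between GF sexes, 2 of the 10 were called with only those groups, a pseudocount of 5 or a minimum mean value of 1. With the replicate block, the genes called were 6630 in females, 3466 in males and 281 between GF sexes, the female and male split being 3560 higher and 3070 lower, and 1695 and 1771, and with the block within CV livers 25 between CV sexes. With the block, Cyp7a1 was also called lower in females (adjusted p = 0.0494 in limma) and no other call on the 10 genes changed, while the adjusted p of the 5 ratios was 0.156 at least.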
